A study of Mus musculus with 2 samples.

Results

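Fibroblasts of mouse bone that carried *Ly6a* and *Pdgfra* but no detected *Pi16* were followed through 2 single-cell RNA libraries, 1 from untreated mice and 1 from calcitriol-injected mice. A cell was counted as a member when its barcode held at least 200 detected genes, at least 3 UMIs of *Ly6a*, at least 1 of *Pdgfra* and 0 of *Pi16*. A UMI is the molecular tag that marks 1 captured mRNA molecule. The rule also asked for 0 UMIs of *Cdh5* (endothelium), fewer than 2 of *Kera* and of *Angptl7* (tendon), *Prg4* under 5% of UMIs, *Col2a1* under 0.5% and the haemoglobin genes under 10%. It found 288 of 4633 untreated barcodes (6.22%, exact binomial 95% interval 5.54 to 6.95) and 445 of 3920 calcitriol barcodes (11.4%, 10.4 to 12.4), or 733 of the 8553 barcodes with 200 or more genes. These shares depend on the haemoglobin-rich barcodes: of the barcodes under the haemoglobin limit, members made up 12.9% in both libraries (288 of 2239 and 445 of 3458). In all, 10638 barcodes were deposited.

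All mice were male C57BL/6J animals of 7 weeks with no other genotype or agent named. The treated group had received 2.5 μg/kg calcitriol in each of 3 daily injections and its femurs were taken 24 h after the last one; the control group was left untreated, with no vehicle injection named, so that calcitriol cannot be told apart from injection and handling. The femurs of 6 mice were pooled into 1 library per group, so that the spread between mice cannot be seen, no p-value was computed and no difference between the groups has a replicate check. The epiphyses had been cut off, the marrow flushed out, the bone digested with collagenase and EGTA, and CD45-bearing cells removed with beads.

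Calcitriol, the hormonal form of vitamin D, acts through a nuclear receptor encoded by *Vdr*. Fibroblasts of connective tissue make collagens, proteoglycans and elastic fibres, and they also send out chemokines, complement proteins and growth factors. In several organs, fibroblasts with *Pi16* and *Dpp4* lie in the outer sheath of vessels and in fascia and are called adventitial, while others lie within the tissue and are called parenchymal. Secreted and matrix proteins are folded in the endoplasmic reticulum, and some of its chaperone genes carry a promoter element described further on.

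The members were well covered in both libraries. The median cell held 11490 UMIs and 3081.5 genes in the untreated library, and 12200 UMIs and 3004 genes in the calcitriol library. Together the members held 3962857 and 7024262 UMIs. Mitochondrial transcripts took a median of 2.94% and 3.03% of a cell's UMIs, so that depth and mitochondrial share were close in the 2 libraries. The libraries shared 8 barcodes, of which 0 untreated and 1 calcitriol barcode belonged to a member.

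Expression was taken as the UMIs of a gene summed over the members, per 1000000 of all their UMIs (CPM). The kit counts 3′ ends, so a CPM needs no correction for the length of the gene. Brackets give exact 95% intervals, which cover counting error only. Levels carry Poisson intervals, log2 ratios conditional binomial ones, and shares of cells Clopper-Pearson ones.

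The values that chose the members are a description and not a result. The median member had 18 UMIs of *Ly6a* and 3 of *Pdgfra* in the untreated library, and 14 and 5 in the calcitriol library. The cells just inside the limit, with exactly 3 UMIs of *Ly6a*, numbered 18 and 29. In them *C3* stood at 24.8 and 607 CPM and *Col14a1* at 152 and 150 CPM. The cells just outside, with 2 UMIs of *Ly6a*, numbered 20 and 45 and had 2.56 and 104 CPM of *C3* and 59.0 and 101 CPM of *Col14a1*. Cells with exactly 1 UMI of *Pdgfra* made up 60 and 57 of the members. A further 18 untreated and 35 calcitriol cells met every other limit but held 1 UMI of *Pi16*.

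The cells carried the genes of fibroblasts. *Dcn*, the proteoglycan decorin, stood at 11040 CPM untreated and 14632 CPM with calcitriol, and *Gsn*, the actin-severing protein gelsolin, at 14772 and 16120 CPM. *Col3a1* stood at 10185 and 8609 CPM. Of the markers named for these cells beside *Ly6a* and *Pdgfra*, *Scara5*, a ferritin receptor, was in 61.8% and 77.3% of cells, and *Col14a1*, a fibril-associated collagen, in 84.0% and 76.4%. The other 2 marked only some of the cells: *C3*, the central complement protein, was in 39.6% and 48.1%, and *Ccl7*, a monocyte-attracting chemokine, in 38.9% and 36.4%.

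Few UMIs of blood stem cell genes were found, although *Ly6a* (Sca-1) and *Cd34* are widely used to sort such cells. *Ptprc*, which encodes CD45, was found as 5 UMIs in 1 untreated cell and in 0 of 445 calcitriol cells, which allows a UMI in up to 0.674% of cells. The bead step would also have removed cells with CD45. *Flt3* and *Cd48* were at 0 UMIs in both libraries, and *Kit* had 2 and 13 UMIs. The summed level of the 12 stem cell markers was 720 and 558 CPM, and it came almost wholly from *Cd34* (487 and 243 CPM) and *Procr* (204 and 289 CPM), which fibroblasts also express.

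Transcripts of other cells were present, some of them in a few members only. The 12 immune markers summed to 177 CPM untreated and 3.42 CPM with calcitriol, and 1 untreated cell held all 207 UMIs of *S100a8* and 356 of 364 UMIs of *S100a9*. The 8 Schwann cell markers summed to 128 and 19.6 CPM, and the 10 endothelial markers to 38.4 and 44.1 CPM, mainly *Eng*, in 28.1% and 30.6% of members. The 10 smooth muscle and pericyte markers summed to 250 and 192 CPM, with *Cspg4* in 45.5% and 30.6% of members. Larger sums came from the tendon markers (781 and 1265 CPM) and from 2 lists led by *Prg4*. These were the synovial lining (2933 and 4881 CPM) and chondrocyte markers (4094 and 6212 CPM). *Bglap*, the osteocalcin of osteoblasts, had 7192 UMIs in the untreated members, 7056 of them in 1 cell, and 354 in the calcitriol members.

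Haemoglobin moved with the group. Its median share was 0.131% of a member's UMIs in the untreated and 0.0316% in the calcitriol library, while haemoglobin-rich barcodes made up 51.7% and 11.8% of the barcodes. The 10 erythroid markers summed to 1283 and 352 CPM over the members, led by *Hbb-bs* at 718 and 203 CPM. *Klf1*, a defining transcription factor of red cell precursors, had 0 and 2 UMIs. All 288 untreated and 443 of the 445 calcitriol members lay under 1% haemoglobin. The part of RNA from outside the cells in the differences given here was not tested.

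The members were not of 1 kind. Clustered on their own, after the mean of each library had been set equal, they fell into 7 subgroups present in both libraries. Their leading genes are those with the largest ratio to the other members, and since the same genes made the clusters, this is a description only. Subgroup 1 (230 cells) was led by interferon and cytokine genes, with *Fgl2* at 1783 CPM against 394 CPM in the other members, *Cxcl1* at 4817 against 1287 and *Il6* at 654 against 146. Subgroup 3 (183 cells) was led by *Txnip* (1369 against 305 CPM) and had more *Lepr*, the leptin receptor (71.1 against 22.6 CPM), and *Gas1* (1314 against 532 CPM). These 2 subgroups held most of the cells. The borders of the subgroups moved with the settings, while 86 to 96 of the 98 cells of subgroup 2 stayed in 1 cluster of at most 97 cells. At a clustering resolution of 0.3 in place of 0.5, 117 cells of subgroup 1, 145 of subgroup 3 and all 63 of subgroup 6 fell into 1 cluster of 328 cells, and the 53 cells of subgroup 4 into 1 of 174. With 10 components in place of 20, 17 of the 19 cells of subgroup 5 fell into a cluster of 113, and with 30 components 62 cells of subgroup 6 fell into a cluster of 203.

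Subgroup 4 (53 cells) had among its leading genes *C4b*, of the complement cascade (2189 against 172 CPM), *Ptx3*, a secreted pattern recognition protein (1859 against 188 CPM), and *Cxcl12* (1943 against 200 CPM). Subgroup 6 (63 cells) was led by *Inmt* (425 against 54.9 CPM), with *Sparcl1* (1153 against 199 CPM), *Lpl* (656 against 131 CPM) and *Ccl11* (419 against 75.2 CPM). Subgroup 7 (87 cells) was led by *Chrdl1*, a BMP antagonist (287 against 38.6 CPM), *Col18a1* (392 against 69.4 CPM) and *Wnt2* (74.0 against 9.11 CPM). None of subgroups 1, 3, 4, 6 and 7 was given a cell type name.

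The remaining 2 subgroups went against the label. Subgroup 2 (98 cells, 36 untreated and 62 calcitriol) was led by *Ibsp*, bone sialoprotein (9606 against 8.94 CPM), *Mmp13* (6058 against 14.7 CPM) and *Spp1*, osteopontin (12677 against 89.9 CPM), counted 9 of 10 osteoblast markers and was osteoblast-like. Its median depth, 21410.5 and 26346 UMIs, was well above that of all members, and doublet scores marked 11.1% and 17.7% of its cells, against 2.08% and 3.60% of all members. Subgroup 5 (19 cells) was led by *Clic5* (722 against 1.60 CPM) and *Htra4* (1061 against 20.5 CPM), counted 6 of 6 lining markers and was synovial lining-like.

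**Figure D1:**
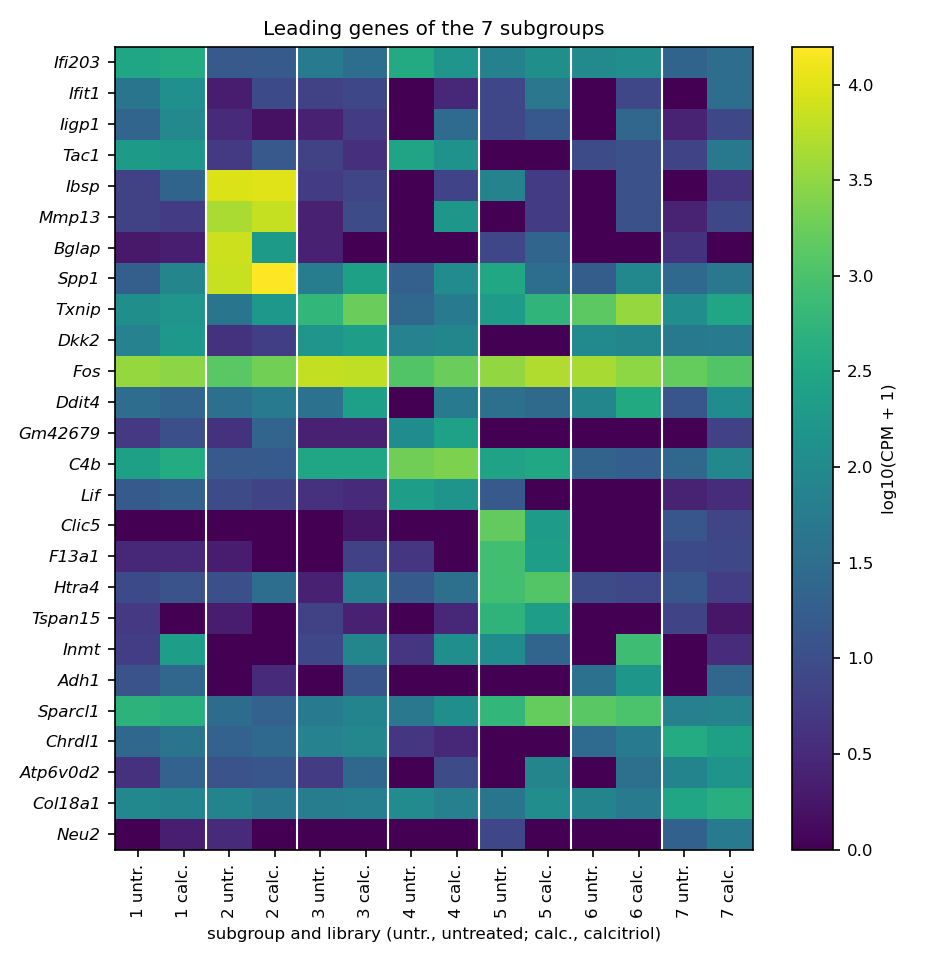
Level of 3 or 4 leading genes of each subgroup (rows; a gene leading 2 subgroups is shown once) in every subgroup and library (columns), as log10(CPM + 1) in colour. *Ibsp*, *Mmp13* and *Spp1* are bright in subgroup 2 of both libraries and *Clic5* and *Htra4* in subgroup 5, while *Inmt* is bright in subgroup 6 of the calcitriol library and at 0 in that of the untreated library.

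Calcitriol and untreated members were compared to ask which genes differed in these cells after the injections. A gene was tested when it had at least 50 UMIs over all members and was found in at least 10% of the members of a library, and it was called at a 2-fold or larger ratio. Of 8499 genes, 158 were higher in calcitriol (1.86%) and 165 were lower (1.94%), the latter including 4 haemoglobin genes. The median log2 ratio of all tested genes was -0.10, and with this median set to 0 the split was 199 higher and 112 lower.

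Of the 15 genes with the largest ratios upward, *Serpina3n* and *Galnt15* had the most UMIs. *Galnt15*, an enzyme of the family that starts O-linked glycosylation (ENSMUSG00000021903, chromosome 14 of GRCm38, 32028989 to 32062197), stood at 44.7 CPM untreated and 311 CPM with calcitriol, a log2 ratio of 2.80 [2.58, 3.03]. It was found in 33.7% of untreated members (28.2 to 39.5) and 81.8% of calcitriol members. In endothelial cells, the shares were 39.9% and 60.7%, so that the untreated share was no higher than in cells outside the fibroblasts. With every cell thinned to 2000 UMIs (0 and 1 members left out), the shares of members were 9.72% and 46.6%. The gene was higher in calcitriol in 7 of 7 subgroups, with log2 ratios from 1.80 to 3.63.

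*Serpina3n*, a secreted inhibitor of serine proteases, stood at 60.1 and 395 CPM (log2 ratio 2.72 [2.53, 2.91]) and was found in 30.2% and 63.4% of members, against 6.90% and 10.7% of endothelial cells. Its highest level was in subgroup 4, with 342 CPM untreated and 1650 CPM calcitriol. *Pdk4*, the kinase that turns off pyruvate dehydrogenase, stood at 8.33 and 60.8 CPM (log2 ratio 2.87 [2.36, 3.43]). Both genes were higher in calcitriol in all 7 subgroups, *Serpina3n* against 0 untreated UMIs in subgroup 5 and *Pdk4* against 0 in subgroup 4.

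*Inmt*, an N-methyltransferase of small amines, went from 6.81 CPM and 3.47% of cells in the untreated library to 110 CPM and 26.7% of cells in the calcitriol library (log2 ratio 4.02 [3.47, 4.63]). It had 0 UMIs in the 203 untreated endothelial cells (which allows a UMI in up to 1.48% of them) and found in 1 of the 224 calcitriol ones. Its level was uneven between subgroups: in subgroup 6 it went from 0 UMIs to 775 CPM, in subgroup 1 from 4.86 to 226 CPM, and in the synovial lining-like subgroup 5 it was lower in calcitriol, with 16 untreated and 5 calcitriol UMIs. The 16 lay in 1 cell, which held 59.3% of the untreated UMIs of the gene. Apart from *Inmt* in subgroup 5, the 15 genes with the largest upward and the 15 with the largest downward ratios went the same way in every subgroup where they had at least 10 UMIs. They were chosen by their ratios over these same cells, so this is a description only. Some were compared in only 3 subgroups, as *Mettl27* was. For 15 of the genes, a subgroup stood at 0 UMIs in a library, and 3 counts stood in for it.

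Low counts stand behind several of the largest ratios, and 13 of the 15 genes upward were in fewer than 10% of untreated members, so that they were tested only through the calcitriol library. *Klf15*, a Krüppel-like transcription factor of fasting and glucocorticoid metabolism, had 1 UMI in the untreated and 91 in the calcitriol members, a log2 ratio of 5.68 with an interval of 3.17 to 11. Thinned to 2000 UMIs per cell, it had 0 and 11 UMIs, a log2 ratio of at least 1.25, and 3 of the 4 subgroups with 10 or more of its UMIs had 0 untreated UMIs. *Cytl1*, a small secreted protein of cartilage, had 18 and 377 UMIs, of which 228 lay in 1 calcitriol cell, and its log2 ratio of 3.56 became 1.56 without the osteoblast-like cells. It was found in 5.56% and 21.1% of members and in 5.42% and 25% of endothelial cells, so that its share of cells is read as background. *Cnr1*, the cannabinoid receptor, had 8 and 121 UMIs, and *Coq8a*, of coenzyme Q synthesis, 7 and 91. The other 7 of the 15 (*N4bp2l1*, *Map7d2*, *Lvrn*, *Acss3*, *Mettl27*, *Gdpd1* and *Serpina3c*) had log2 ratios from 2.41 to 3.15 and between 4 and 15 untreated UMIs. Thinned to 2000 UMIs per cell, the log2 ratio of *Serpina3c* was 4.42, and 1 cell held 66.7% of the untreated UMIs of *Map7d2*. *Gdpd1* was in 2.78% and 15.7% of members and in 16.7% and 21.0% of endothelial cells. Its level in endothelial cells was 20.5 and 22.0 CPM, so that these cells give no background for it. Its share is not read as particular to the members.

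Among the lower genes, *Igf1*, insulin-like growth factor 1 (ENSMUSG00000020053, chromosome 10, 87858265 to 87937042), was the most abundant of the 15 named. It went from 593 CPM untreated to 151 CPM with calcitriol (log2 ratio -1.97 [-2.08, -1.87]) and was found in 70.5% and 47.0% of members, against 14.3% and 6.25% of endothelial cells. It was lower in calcitriol in 7 of 7 subgroups, from 2087 to 478 CPM in subgroup 4 and from 191 to 129 CPM in subgroup 7. In *Pi16*-positive fibroblasts of the same libraries, *Igf1* stood at 494 and 425 CPM (log2 ratio -0.22), and in the *Kera* or *Angptl7* cells at 734 and 219 CPM. The difference between these populations was not tested.

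*Spon2*, a secreted matrix protein, stood at 147 and 30.9 CPM (log2 ratio -2.25 [-2.48, -2.02]), and *Ckb*, the brain-type creatine kinase, at 171 and 38.3 CPM (log2 ratio -2.16 [-2.36, -1.95]). *Serpinb1a*, an inhibitor of neutrophil proteases, stood at 54.5 and 11.2 CPM. These genes were found in many untreated members, *Ckb* in 63.5%, *Spon2* in 46.5% and *Serpinb1a* in 31.9%, and in 29.2%, 14.8% and 11.9% of calcitriol members. In endothelial cells the shares were 40.9% and 17.4% for *Ckb*, 3.94% and 0.893% for *Spon2*, and 22.7% and 12.1% for *Serpinb1a*. The calcitriol share of *Serpinb1a* in members was thus no higher than in endothelial cells. Its level was 32.8 and 17.7 CPM in endothelial cells and 8.10 and 3.14 CPM in the *Kera* or *Angptl7* cells. The growth factor *Fgf1* had 56 and 19 UMIs, and the integrin chain *Itga2b* 83 and 41 UMIs. The other 9 of the 15 (*Adcy7*, *Camkk1*, *Wfdc1*, *Stmn4*, *C1qtnf2*, *Riox2*, *Rtkn*, *Homer2* and *Arsi*) had log2 ratios from -2.13 to -1.83. Thinned to 2000 UMIs per cell, *Stmn4* was at -4.53, *Riox2* at -3.08, and *C1qtnf2* and *Homer2* at -2.62. For *Stmn4*, 1 cell held 53.1% of the calcitriol UMIs. Of the 15 lower genes, 9 were in fewer than 10% of calcitriol members, so that they were tested only through the untreated library.

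**Figure D2:**
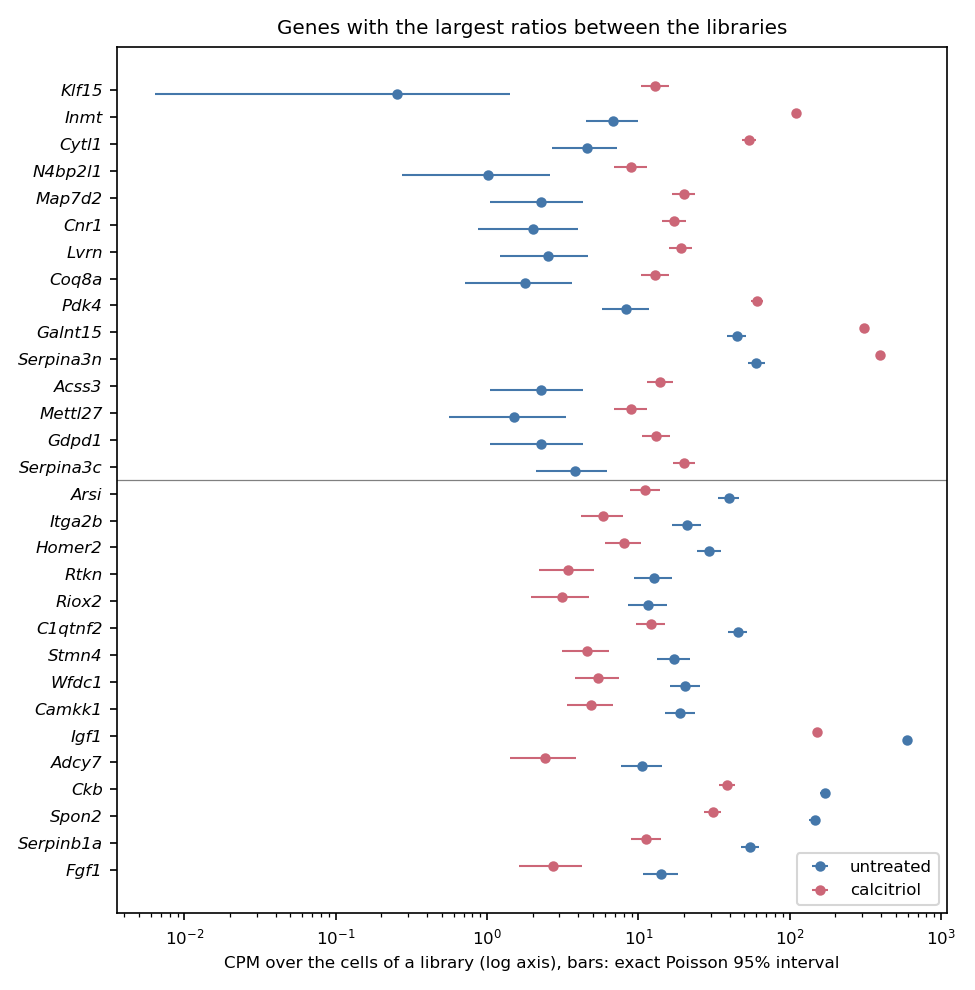
CPM over the members (log axis) of the 15 genes with the largest ratio upward (above the line) and the 15 with the largest downward (under the line), with exact Poisson 95% intervals, blue for the untreated and red for the calcitriol library. The intervals of the 2 libraries do not overlap for any gene, and that of *Klf15* in the untreated library rests on 1 UMI. The genes were chosen by their ratios, so this is a description only. The interval of the ratio excluded 0 for all 158 higher and all 165 lower genes.

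**Figure D3:**
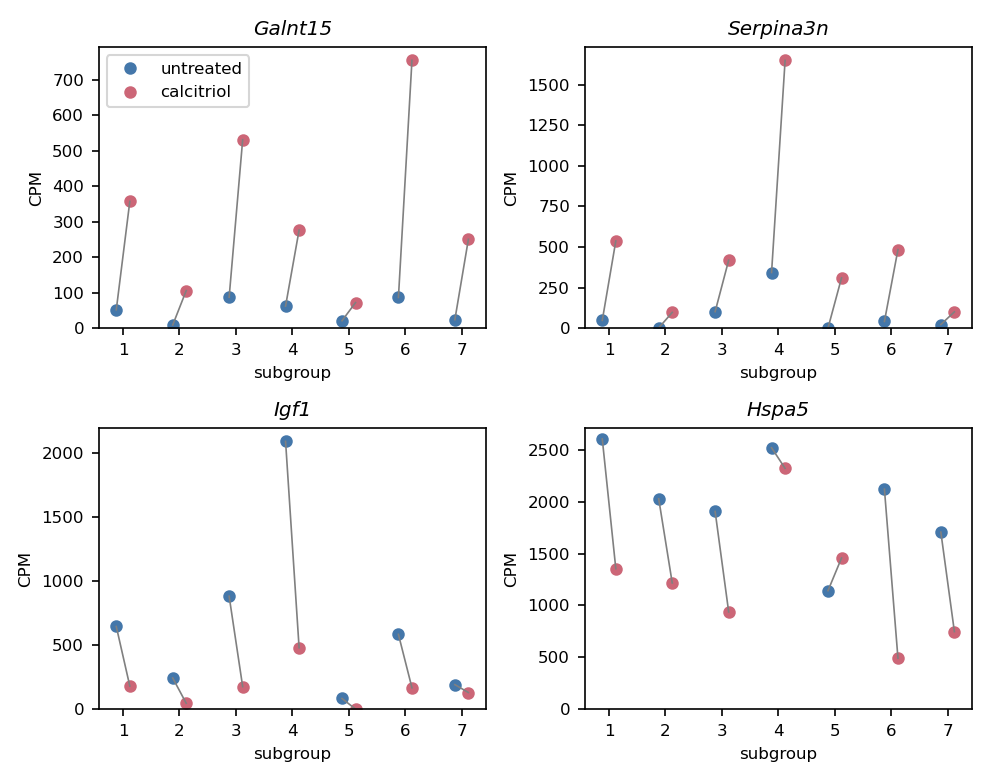
CPM of *Galnt15*, *Serpina3n*, *Igf1* and *Hspa5* in each of the 7 subgroups (linear axes from 0), blue for untreated and red for calcitriol cells joined by a line. *Galnt15* and *Serpina3n* are higher and *Igf1* is lower in calcitriol in 7 of 7 subgroups, while *Hspa5* is lower in 6 and higher in subgroup 5.

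The counts of the gene lists are to be read against the 1.86% of all tested genes that were higher and the 1.94% that were lower. With the median of all genes set to 0, the lower calls of *Cd34*, *Penk*, *P4ha2*, *Igfbp5*, *Angpt1*, *Zfp423*, *Calr*, *Hyou1* and *Fkbp2* were lost and no other call of a list gene was. Of 50 list genes past 2-fold, 16 had the opposite direction in at least 1 subgroup with 10 or more of their UMIs.

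Most genes that glucocorticoids are known to induce lay above 0. Of 18 tested genes of this list, 9 were 2-fold higher, against 1.86% of all tested genes, and 0 lower, 17 lay above 0, and their median log2 ratio was 1.03 against -0.10 for all tested genes. The metallothionein genes, which bind zinc and copper, were the most abundant: *Mt1* stood at 3853 and 11475 CPM (log2 ratio 1.57 [1.55, 1.60]) and *Mt2* at 2246 and 5997 CPM. *Tsc22d3*, which encodes the glucocorticoid-induced leucine zipper, stood at 260 and 575 CPM (1.15 [1.05, 1.25]), *Zbtb16* at 44.7 and 134 CPM (1.58) and the kinase gene *Sgk1* at 416 and 885 CPM (1.09). *Pdk4*, *Ddit4* (1.77), *Lcn2* (1.46) and *Angptl4* (1.26) were the other 4. *Fkbp5*, a chaperone of the glucocorticoid receptor, reached 0.77 [0.57, 0.97], and *Per1* had the same level in both, 19.7 and 20.2 CPM.

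The median of the list lay above 0 in each of the 7 subgroups, from 0.64 in subgroup 1 to 1.16 in subgroup 6. Its median was 0.88 in the *Pi16*-positive fibroblasts, 0.9996 in the *Kera* or *Angptl7* cells and 0.85 in endothelial cells. These populations come from the same 2 libraries and add no replicate, and injection and handling cannot be told apart from calcitriol here. Of 25 dissociation stress genes, which digestion of tissue induces, 0 were 2-fold higher or lower over all members, their median was -0.02, and *Fos* stood at 3046 and 2992 CPM. By cells, their median ran from -0.39 in subgroup 7 to 0.29 in subgroup 4 and 0.57 in subgroup 5, and it was 0.07 in *Pi16*-positive fibroblasts, 0.23 in the *Kera* or *Angptl7* cells and 0.24 in endothelial cells.

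**Figure D4:**
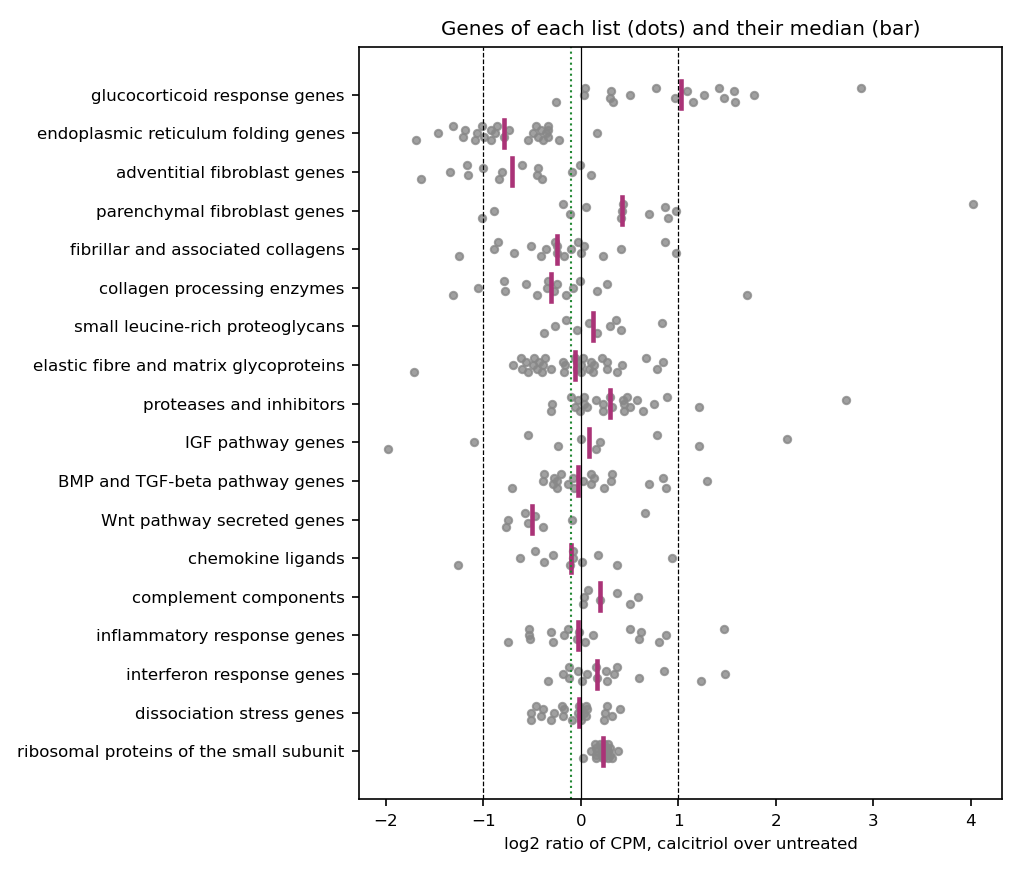
Log2 ratio of CPM, calcitriol over untreated, for each tested gene (dots) of 18 lists, with the median of each list as a bar, dashed lines at 2-fold and a dotted line at -0.10, the median of all tested genes. Glucocorticoid response genes lie to the right, and the genes of endoplasmic reticulum folding and of adventitial fibroblasts to the left.

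The vitamin D receptor gene was rarely detected in these cells. *Vdr* had 7 UMIs in 5 untreated members and 18 UMIs in 14 calcitriol members (1.74% and 3.15% of cells), no more than in endothelial cells (2.46% and 4.02%). *Cyp24a1*, the enzyme that breaks down calcitriol and a main target of its receptor, had 0 UMIs in both libraries, which allows a UMI in up to 1.04% of untreated and 0.674% of calcitriol members and does not limit the share of cells that express it. *Trpv6*, *Cyp27b1* and *Fgf23* were also at 0. Of 7 tested genes of the receptor pathway and its targets, 1 was 2-fold higher, 0 were lower and the median was 0.41. The study names genes raised or lowered by calcitriol in *Fgf23*-expressing osteocytes of these same libraries, which are other cells than the members. Of 7 tested genes that it names as raised there, 0 were 2-fold higher or lower in the members. The 2 tested genes it names as lowered in those osteocytes were not 2-fold higher or lower in the members either.

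The 1 gene past 2-fold was *Spp1*, at 1680 CPM untreated and 4049 CPM with calcitriol (log2 ratio 1.27 [1.23, 1.31]). Most of it came from the osteoblast-like subgroup, in which it stood at 6944 and 15720 CPM, and 1 untreated cell held 75.7% of the untreated UMIs. It was found in 23.6% and 52.8% of members and in 18.7% and 50% of endothelial cells, so that its share of cells is read as background. *S100g*, the vitamin D-dependent calcium-binding protein calbindin-D9k, was below the share needed for the test, with 13 UMIs in 4 untreated and 249 UMIs in 27 calcitriol members, and in 0 endothelial cells of either library. Thinned to 2000 UMIs, it was in 0.347% and 2.93% of members.

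Most genes of protein folding in the endoplasmic reticulum lay below 0. This list of 27 genes was added after the values had been seen, and it is a description only. Of the 27, 8 were 2-fold lower, against 1.94% of all tested genes, 0 were higher, 26 lay below 0 and the median log2 ratio was -0.79 against -0.10 for all tested genes. *Hspa5*, the main chaperone BiP, stood at 2112 and 1165 CPM (-0.86 [-0.90, -0.81]), and *Calr*, the calcium-binding chaperone calreticulin, at 990 and 490 CPM (-1.01 [-1.08, -0.95]). The disulphide isomerase gene *Pdia6* stood at 374 and 164 CPM (-1.19), *Creld2* at 68.4 and 21.2 CPM (-1.69) and *Manf* at 472 and 171 CPM (-1.47). *Serpinh1*, the chaperone of collagen (HSP47), stood at 1609 and 649 CPM (-1.31 [-1.36, -1.25]). *Sdf2l1*, *Fkbp2* and *Hyou1* completed the 8, and *Fkbp10* alone was above 0, at 0.17.

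The median of the list lay below 0 in all 7 subgroups, from -0.999 in subgroup 6 to -0.15 in the 19 cells of subgroup 5, and its median was -0.99 in the *Kera* or *Angptl7* cells, -0.58 in *Pi16*-positive fibroblasts and -0.38 in endothelial cells. In subgroup 6, *Hspa5* went from 2121 to 491 CPM, in subgroup 4 it was at 2521 and 2322 CPM, and in subgroup 5 it was higher in calcitriol, at 1142 and 1457 CPM. With the median of all genes set to 0, 5 of the 27 were 2-fold lower in place of 8.

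Promoters of such genes are known for the endoplasmic reticulum stress element, a CCAAT box spaced by 9 bases from CCACG (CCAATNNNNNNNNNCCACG). It was searched on both strands in the 250 bases before the start of each gene in RefSeq, build GRCm38.p6, after the values had been seen. It was present in 35 of 27025 promoters (0.130%), in 10 of the 6783 tested genes with a promoter in the table (0.147%) and in 8 of the 24 folding genes with one (33.3%), among them 3 of the 6 that were 2-fold lower. The stretches below show the element of *Hspa5*, the most abundant gene of the list, and of the 3 that were 2-fold lower, read on the strand of the gene. Capitals mark the element, which in *Calr* and *Creld2* lies on the opposite strand and so starts with CGTGG.
Hspa5: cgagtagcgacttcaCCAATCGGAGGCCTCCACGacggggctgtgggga
Calr: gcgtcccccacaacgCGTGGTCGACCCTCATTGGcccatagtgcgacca
Pdia6: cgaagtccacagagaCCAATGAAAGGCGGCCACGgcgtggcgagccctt
Creld2: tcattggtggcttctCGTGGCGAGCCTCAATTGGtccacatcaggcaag

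These lie at chr2:34772010-34772058 (plus strand), chr8:84847060-84847108 (minus), chr12:17266476-17266524 (plus) and chr15:88819505-88819553 (plus). A match of letters is not a bound site. *Serpinh1*, whose window in the table does not hold these letters, was lower as well.

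Over all members, *Col1a1* stood at 11048 and 8295 CPM (log2 ratio -0.41) and *Col1a2* at 8603 and 6713 CPM, and of 19 tested collagens 1 (*Col6a6*, -1.25) was 2-fold lower and 0 were higher, with a median of -0.24. The subgroups did not move together: *Col1a1* was lower in 5 and higher in 2, with log2 ratios from -1.03 in subgroup 1 to 1.54 in subgroup 5, and it was highest in the osteoblast-like cells, at 31155 and 21881 CPM. The basement membrane chains *Col4a1* and *Col4a2* were on the other side, at 0.97 and 0.87. Of 16 collagen processing genes, 1 was higher and 2 were lower (*Serpinh1* and the prolyl hydroxylase gene *P4ha2*, -1.06). The higher one was *Lox*, the enzyme that crosslinks collagen and elastin, at 175 and 571 CPM (1.70 [1.59, 1.82]) and in 34.0% and 68.8% of cells. These shares were not set against those of endothelial cells and are not read as shares of expressing cells.

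Elastin, the protein that *Lox* also crosslinks, was lower over all members: *Eln* stood at 54.0 and 16.5 CPM (-1.71 [-2.05, -1.38]). In the 4 subgroups with 10 or more of its UMIs it was lower in 3 and higher in the osteoblast-like one, with 2 and 15 UMIs. It was the only one of 35 tested genes of elastic fibres and matrix glycoproteins past 2-fold. Of the 10 small leucine-rich proteoglycans, none was past 2-fold, and the median was 0.12, led in level by *Dcn*. Of 25 proteases and inhibitors, 2 were higher, *Serpina3n* among them, 0 were lower and the median was 0.30.

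Most adventitial genes lay below 0. Of 14 tested, 5 were 2-fold lower, against 1.94% of all tested genes, 0 were higher, 13 lay below 0 and the median log2 ratio was -0.71. *Cd248*, a surface protein of perivascular fibroblasts, stood at 229 and 90.1 CPM (-1.34 [-1.49, -1.20]) and was found in 69.4% and 38.2% of cells, shares with no background taken beside them. *Efhd1* (-1.64), *Anxa3* (-1.17), *Sema3c* (-1.15) and *Cd34* (487 and 243 CPM, -1.004) were the other 4, and *Clec3b*, tetranectin, stood at 1348 and 755 CPM (-0.84). The osteoblast-like subgroup was the exception, with a median of 0.19, while the other 6 had medians from -0.93 to -0.47. In *Pi16*-positive fibroblasts the median was -0.97, in endothelial cells -0.35 and in the *Kera* or *Angptl7* cells 0.20, with 10 of 14 genes above 0. Of 13 parenchymal genes, 1 was higher (*Inmt*) and 1 lower (*Penk*, -1.02), and the median was 0.43. *Penk* was lower in 4 subgroups and higher in 3, with log2 ratios from -2.32 to 1.97.

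In the IGF pathway, 2 of 10 genes were higher and 2 lower, where 1.86% and 1.94% of all tested genes were. *Igfbp3*, a carrier of IGF, had 135 UMIs in the untreated and 1037 UMIs in the calcitriol members (34.1 and 148 CPM, 2.12 [1.86, 2.39]), and *Pappa*, a protease that cuts IGF carriers, was higher by 1.21. *Igfbp5* stood at 1718 and 803 CPM (-1.10 [-1.15, -1.05]), lower together with *Igf1*. Of 22 other growth factors and receptors, 2 were higher and 2 lower: *Vegfd*, a lymphatic growth factor, stood at 9.84 and 44.3 CPM (2.17) and *Angptl4* at 57.8 and 138 CPM, while *Angptl1* stood at 295 and 129 CPM (-1.20) and *Angpt1* at 41.9 and 20.9 CPM (-1.001). *Pdgfra* itself, at 325 and 398 CPM, was part of the rule.

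Of 22 BMP and TGF-beta genes, 1 was higher, *Inhbb* (1.29), 0 were lower and the median was -0.03. Of 8 secreted Wnt pathway genes, none was past 2-fold and the median was -0.51, with *Sfrp4* at 697 and 408 CPM (-0.77). Among 25 transcription factors of fibroblasts, 0 were higher and 2 lower, the homeobox genes *Meox1* (38.1 and 14.0 CPM, -1.45) and *Meox2* (96.4 and 41.7 CPM, -1.21).

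Immune mediators were abundant in both libraries, and few differed by 2-fold. *Ccl7* stood at 1198 CPM untreated and 501 CPM with calcitriol (-1.26 [-1.32, -1.19]) although the share of cells was nearly the same. It was higher in calcitriol in the *Pi16*-positive fibroblasts (0.49), the *Kera* or *Angptl7* cells (0.69) and the endothelial cells (1.86). The endothelial ratio rests on few cells: *Ccl7* was in 4.93% of untreated and 4.46% of calcitriol ones. In each library 1 endothelial cell held much of it, 45.5% of the untreated and 53.5% of the calcitriol UMIs. The difference between these populations was not tested. The neighbouring chemokine gene *Ccl2* stood at 1870 and 1215 CPM (-0.62), *Cxcl1* at 2493 and 1923 CPM (-0.37) and *Cxcl14* at 358 and 685 CPM (0.94). *Ccl7* was the 1 chemokine of 12 past 2-fold. Of 18 inflammatory response genes, 1 was higher (*Lcn2*, from 28 to 137 UMIs), and *Il6* stood at 174 and 319 CPM (0.87). All 7 tested complement components lay above 0, none past 2-fold, with *C3* at 357 and 535 CPM (0.58 [0.49, 0.67]).

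Of 9 tested genes of the blood stem cell niche in marrow, *Spp1* was higher, most of it from the osteoblast-like subgroup as given above, and *Angpt1* lower. *Cxcl12* (339 and 314 CPM) and *Kitl* (57.3 and 58.9 CPM) were nearly equal. *Cxcl12*, the chemokine that holds blood stem cells in place, was found in 56.3% and 62.5% of members and in 66.0% and 60.3% of endothelial cells, so that its share is not read as expression particular to them, and its highest level was in subgroup 4, at 2277 and 1760 CPM.

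Set beside the 73 untreated and 81 calcitriol cells that met the same limits but held *Pi16*, the *Pi16*-negative cells were compared within each library, and a gene was called at 1.5-fold or more the same way in both. Of 8885 genes, 244 were higher in *Pi16*-negative cells (2.75%) and 247 lower (2.78%). Genes that go with *Pi16* in single cells are favoured by the rule itself, so these values are a description. Without the cells that held a UMI of *Ibsp*, 204 were higher and 218 lower.

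Genes that lead the osteoblast-like and lining-like subgroups were among the largest ratios upward. *Ibsp* had the largest, at 2253 against 9.14 CPM in the untreated library and 2445 against 12.5 CPM in the calcitriol library. *Mmp13*, *Col11a1*, *Spp1* and the lining gene *Htra4* (39.4 against 3.43 and 64.5 against 11.7 CPM) were also among them. *Htra4* rested on 3 untreated and 14 calcitriol UMIs in the *Pi16*-positive cells. *Hmga2*, *Matn4*, *Mertk*, *Hpgd* and *Tspan2* rested on 0 to 7 UMIs in the *Pi16*-positive cells. Without the cells that held a UMI of *Ibsp*, *Spp1* in *Pi16*-negative cells stood at 67.4 CPM untreated and 138 CPM calcitriol, in place of 1680 and 4049. *Col11a1* stood at 21.7 and 57.3 CPM, in place of 223 and 150. The untreated log2 ratio of *Mertk* became 0.95 [-1.95, 6.42], while *Htra4* stayed at 38.1 and 75.8 CPM. More broadly expressed genes were *Col1a1*, at 11048 against 4465 CPM and 8295 against 3108 CPM, and *Lum*, at 2335 against 1255 and 2878 against 1436 CPM. *Col1a1* was highest in the osteoblast-like cells, as given above, and how much of its ratio they carry was not tested.

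The genes lower in *Pi16*-negative cells included most of the adventitial list, with 11 of 14 tested lower and 0 higher. *Mfap5*, of elastic microfibrils, stood at 830 against 2033 CPM untreated and 608 against 1523 CPM calcitriol (log2 ratios -1.29 and -1.32), and *Fbn1*, fibrillin 1, at 949 against 1953 and 625 against 1269 CPM. *Il33*, an alarm cytokine, stood at 12.4 against 38.9 and 4.70 against 43.3 CPM, and *Slc43a3*, a nucleobase transporter, at 13.6 against 53.7 and 41.3 against 137 CPM. *Krt80*, *Tek*, *Tubb4a*, *Miat*, *Wnt10b*, *Syk*, *Clec1a* and *Rorb* made up the rest of the 10. Complement *C3* was lower as well, at 357 against 689 and 535 against 1310 CPM. *Ly6c1*, *Tnxb* and *Dpp4* were below 0 in both libraries without passing 1.5-fold in both.

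**Figure D5:**
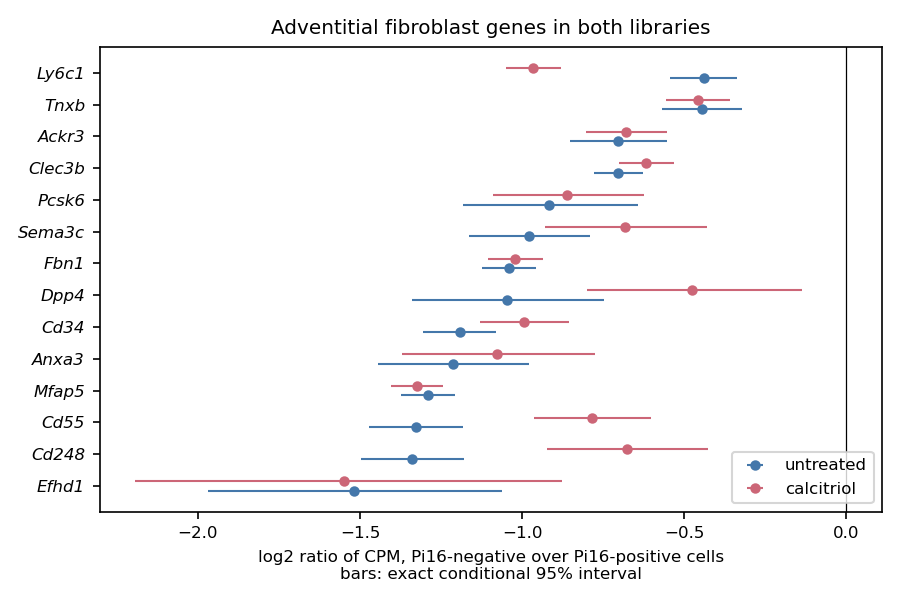
Log2 ratio of CPM, *Pi16*-negative over *Pi16*-positive cells, for the 14 tested adventitial genes, with exact conditional 95% intervals, blue for the untreated and red for the calcitriol library. All 28 points lie left of 0.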

How the data were processed

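The authors aligned the reads of both droplet libraries to mm10 (GRCm38) with Cell Ranger 4.0.0 and deposited the filtered UMI counts per gene and barcode, without normalization; the submitters' notes also name Seurat 3.2.2. All values start from these counts for 32285 genes. Members were found by the limits given above, and the members and gene lists were chosen with earlier results of these data known. Sums, CPM and exact intervals were computed in Python 3.11.15 (pandas 2.3.3, numpy 2.4.6, scipy 1.17.1) and tested on simulated data, figures were drawn with matplotlib 3.10.9, and where 1 of the groups held 0 UMIs, 3 counts stood in for it.

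The text names the 15 largest and 15 smallest ratios (mitochondrial, haemoglobin and rule genes left out), the markers, the list genes past 2-fold or most abundant, the 10 largest and 10 smallest *Pi16* ratios and the genes leading subgroups. *S100g*, below the filter, was named after its value was seen.

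Subgroups were clustered (Leiden, scanpy 1.11.5, 1500 variable genes, 20 components, 15 neighbours, resolution 0.5) after each gene had been centred in each library. Doublets were scored with Scrublet. Its automatic threshold marked 0 and 4 barcodes and had not worked, so the 213 untreated (4.60%) and 136 calcitriol (3.47%) barcodes with the highest scores were marked, and they were kept. Gene coordinates come from GENCODE vM21. Sequencing reads were not analysed here, and a few genes that the rule would name are not reported here.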

Additional observations from a re-analysis of the deposited data

How the results depend on the processing

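Each difference is between 2 libraries, so that batch, pool and treatment cannot be told apart. No paired analysis was possible because each group has 1 library. The number of calls followed the limits used. The 158 higher and 165 lower genes became 491 and 419 with at least 20 UMIs and no share of cells, 87 and 90 with at least 200 UMIs, and 513 and 856 at 1.5-fold. With cells thinned to 2000 UMIs, 79 were higher among 2931 tested, and with the mean of the CPM of the cells 268 were lower. The 5 lower adventitial genes became 3 when thinned and 8 at 1.5-fold, and the 8 lower folding genes 15 at 1.5-fold and 5 with the median set to 0. Without the osteoblast-like subgroup, chosen after seeing the data, 185 were higher and 245 lower, with 8 glucocorticoid response genes higher, 4 adventitial and 10 folding genes lower, and *Spon2* at -1.99. The other counts, those of glucocorticoid response genes and of members included, stayed within 1.5 times under the alternatives run (other limits for *Ly6a*, *Pdgfra*, detected genes, mitochondrial or haemoglobin share, doublets, the deepest 5% of cells, totals, shared barcodes). Limits on UMIs and fold change which genes are called and not the value of a gene. Under the other settings the 30 named genes gave 368 values, of which 354 lay within their own counting interval, 14 did not, 0 changed sign and 368 were past 2-fold. A further 22 are bounds, since a group or subgroup stood at 0 UMIs. When thinned, *Klf15* was at least 1.25, *N4bp2l1* at least 0.38 and *Adcy7* at most -0.62, so that 2-fold could not be told for the latter pair. Some of the settings could hardly move a value: without shared barcodes, 288 untreated and 444 calcitriol members remained. The 354 values are thus not as many separate checks. Thinning moved more, as for *Cytl1*, from 3.56 to 2.22. The members numbered 308 and 490 with 2 UMIs of *Ly6a* and 228 and 388 with 2 of *Pdgfra*. At this depth a gene under 50 UMIs was not tested.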

Other observations

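A few lists outside the matrix, signalling and immune genes held single genes past 2-fold, where 1.86% of all tested genes were higher and 1.94% lower. In the list of retinoid and steroid metabolism, *Aldh1a1*, which makes retinoic acid, stood at 11.4 CPM untreated and 32.2 CPM with calcitriol (45 and 226 UMIs), and *Cyp1b1*, an oxidase of steroids and retinoids, at 28.8 and 83.6 CPM (1.54 [1.25, 1.84]). *Crabp2*, which carries retinoic acid to the nucleus, was lower, at 111 and 45.8 CPM (-1.28 [-1.49, -1.07]). The glucocorticoid receptor gene *Nr3c1*, of the same list, stood at 167 and 109 CPM (-0.62). The list had 2 higher and 1 lower of 10 tested genes and a median of -0.30. Of 9 adipocyte lineage genes, *Pnpla2*, the main triglyceride lipase, was higher, at 9.84 and 32.7 CPM (1.73 [1.24, 2.26]), and *Zfp423* lower (-1.05, a call lost with the median of all genes set to 0), with a median of 0.30.

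Of 17 interferon response genes, *Ifit2* (26 and 128 UMIs, 1.47) and *Irf7* (47 and 195 UMIs, 1.23) were higher, 0 were lower and the median was 0.17. Of 13 clock genes, *Per2* was higher (15 and 60 UMIs, 1.17) and the median was 0.04. None of 5 tested proliferation genes, 5 complement inhibitors or 13 mitochondrial transcripts was past 2-fold. All 22 ribosomal proteins of the small subunit lay above 0, none past 2-fold, with a median of 0.23. Their median was also above 0 in each of the 7 subgroups and in the *Pi16*-positive, *Kera* or *Angptl7* and endothelial cells, from 0.05 to 0.44.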
